A study of Mus musculus with 4 samples.

Results

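The tissue kallikreins of epidermal desquamation are described here across 4 sections of mouse facial skin and oral mucosa: Klk5, Klk6, Klk7, Klk8, Klk10, Klk11, Klk13 and Klk14, with Spink5, the gene of their inhibitor. These 9 genes of the 32285 listed were taken by symbol, and all 9 were found once each. In the files Klk14 is ENSMUSG00000044737, Klk10 is ENSMUSG00000030693, Klk7 is ENSMUSG00000030713, Klk6 is ENSMUSG00000050063, Klk5 is ENSMUSG00000074155 and Spink5 is ENSMUSG00000055561. The sections are day 4 oral mucosa, unwounded oral mucosa, day 4 facial skin and unwounded facial skin, where day 4 is the fourth postoperative day after wounding, and all came from wildtype mice as flash-frozen tissue. The labels give no age, sex or number of mice. Each group is 1 section on a 10x Visium array, in which barcoded spots capture RNA from the tissue above them and a molecular tag (UMI) counts every captured transcript once. There are no replicates, so no test between groups was run, and the 95% intervals cover counting error only.

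Kallikrein-related peptidases are secreted serine proteases made in the upper layers of stratified epithelium. In human epidermis the trypsin-like KLK5 and KLK14 and the chymotrypsin-like KLK7 form a cascade that cuts corneodesmosin and desmosomal cadherins, the proteins that hold corneocytes together, so that the outermost cells are shed. LEKTI, the product of Spink5, binds and inhibits several of these proteases, and its loss causes Netherton syndrome in humans and a lethal barrier defect in mice. Klk6, Klk8 and Klk13 are trypsin-like members also found outside skin, Klk8 being known as neuropsin, while the roles of Klk10 and Klk11 in epidermis are less settled.

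The 8 kallikreins lie in 1 cluster on mouse chromosome 7, all on the forward strand. The RefSeq annotation of GRCm38.p6 orders them Klk14, Klk13, Klk12, Klk11, Klk10, Klk9, Klk8, Klk7, Klk6 and Klk5, followed by Klk4 and Klk15, within 43680880 to 43940035 (259 kb). Spink5 lies on another chromosome. The 250 bases before a transcript start of the RefSeq promoter table are shown for 2 genes that were higher in the oral sections at day 4 (Klk14 and Klk10) and 2 that were higher in the facial sections (Klk7 and Klk6), as the tissue contrast is described below along the cluster. They were read from the RefSeq promoter table of GRCm38.p6, forward strand. For Klk14 that transcript starts inside the gene span whose start, 43680880, is used for the order, and the Klk6 window spans the gene start at 43824438. Capitals mark the GC box (GGGCGG or its reverse complement).
Klk14, chr7:43690168-43690417: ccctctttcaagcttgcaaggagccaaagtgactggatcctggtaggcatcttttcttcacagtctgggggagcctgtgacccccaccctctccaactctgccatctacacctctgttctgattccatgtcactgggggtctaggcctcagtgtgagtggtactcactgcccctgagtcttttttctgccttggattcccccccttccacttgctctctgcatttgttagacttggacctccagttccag
Klk10, chr7:43780804-43781053: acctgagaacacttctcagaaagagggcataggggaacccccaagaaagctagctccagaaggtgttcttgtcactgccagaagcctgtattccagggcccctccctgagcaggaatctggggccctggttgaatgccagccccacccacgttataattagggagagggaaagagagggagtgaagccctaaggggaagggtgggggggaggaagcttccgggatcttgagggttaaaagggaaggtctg
Klk7, chr7:43811044-43811293: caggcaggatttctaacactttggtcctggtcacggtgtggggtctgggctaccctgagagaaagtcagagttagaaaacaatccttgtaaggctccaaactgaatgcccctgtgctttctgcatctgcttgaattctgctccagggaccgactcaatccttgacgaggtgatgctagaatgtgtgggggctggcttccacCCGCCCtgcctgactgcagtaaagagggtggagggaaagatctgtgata
Klk6, chr7:43824294-43824543: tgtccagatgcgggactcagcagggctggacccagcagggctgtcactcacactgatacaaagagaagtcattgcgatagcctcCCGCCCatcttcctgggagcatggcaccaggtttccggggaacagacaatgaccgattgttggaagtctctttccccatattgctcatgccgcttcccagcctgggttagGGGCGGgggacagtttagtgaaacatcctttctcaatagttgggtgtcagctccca
The 10 genes from Klk14 to Klk5 had 12 such windows in the table, and 7 motifs chosen with the expression values known were searched on both strands. The GC box stood in 4 of the 12 windows, those of Klk8, Klk7 and both starts of Klk6, against 32.7% of 32851 mouse promoter windows of the same length. The letters AGATAA, bound by GATA factors, stood in the windows of Klk12 and Klk5 (9.99% of all windows), and CCAAT in that of Klk9 (33.9%). The AP-1 motif TGANTCA had no match in the 12 windows and one in 6.75% of all windows. The TATA box, searched as TATAAA, was likewise absent from the 12 and stood in 12.4% of all windows. For the motif bound by KLF factors, GGGTGTG, the 12 windows gave no match, against 6.93% of all windows. None of the 12 held the grainyhead-like motif AACNGGTT, found in 1.79% of all windows. A match is a description of these letters only.

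The sections held 3004174 UMIs in 430 spots (day 4 oral), 7285023 in 1288 spots (unwounded oral), 9934290 in 1141 spots (day 4 facial) and 11939479 in 671 spots (unwounded facial). The 8 kallikreins took 5331, 10774, 23420 and 31978 of them in the same order. Levels are given as CPM, the UMIs of a gene scaled to a common section total. A whole section mixes tissues, and in it fewer cells of a type and less RNA per cell cannot be told apart. The summed level of 7 skeletal muscle markers was 36459 CPM in day 4 oral and 40209 CPM in unwounded oral mucosa, against 791 CPM in day 4 facial and 1010.5 CPM in unwounded facial skin. The section labelled unwounded facial skin carried a neutrophil signal: all 6 neutrophil markers were lower in day 4 facial skin, with S100a8 at 74.4 CPM there and at 3028 CPM in the unwounded section, and 1 of its regions was led by Cxcl2 and Il1b. The 4 sections shared between 46 and 347 spot barcodes pairwise, as all arrays use the same barcode set. The median spot had 5395.5 UMIs in day 4 oral, 98 in unwounded oral, 5372 in day 4 facial and 16128 in unwounded facial sections. The day 4 sections held Xist UMIs (84 in oral, 909 in facial), and the unwounded ones held 0 and 1 but carried Y-linked Ddx3y (280 and 587 UMIs), so wounding and this difference cannot be told apart.

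Klk14 and Klk10 dominated the oral kallikrein UMIs and Klk7 the facial ones. Klk14, a trypsin-like protease able to activate other kallikreins, stood at 489 CPM (465 to 515) in day 4 oral and 478 CPM (462 to 494) in unwounded oral mucosa. In facial skin it stood at 3.83 CPM (2.71 to 5.25) at day 4 and 32.7 CPM (29.6 to 36.2) unwounded. Every oral value lay above every facial one, by 128-fold between the day 4 sections and 14.6-fold between the unwounded sections.

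Klk10 was measured at 732 CPM in day 4 oral and 495 CPM in unwounded oral mucosa, against 156 CPM in day 4 facial and 413 CPM in unwounded facial skin. It was 4.69-fold higher in oral mucosa at day 4 and 1.20-fold higher unwounded. Klk13 was measured at 214 CPM in day 4 oral and 159.8 CPM in unwounded oral mucosa, against 93.4 CPM in day 4 facial and 170.4 CPM in unwounded facial skin. Klk11 was the member with the narrowest range, at 103 and 124 CPM in the day 4 and unwounded oral sections, against 98.3 and 130.5 CPM in the day 4 and unwounded facial sections.

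Klk7, the chymotrypsin-like protease of the stratum corneum, stood at 93.9 CPM in day 4 oral and 80.4 CPM in unwounded oral mucosa, against 887 CPM in day 4 facial and 979.8 CPM in unwounded facial skin. It was 9.45-fold lower in oral mucosa at day 4 and 12.2-fold lower unwounded. Klk5, the trypsin-like protease placed at the head of the human cascade, was counted with 11 UMIs in day 4 oral and 37 UMIs in unwounded oral mucosa, which is 3.66 and 5.08 CPM. Its facial levels were 261 CPM at day 4 and 157 CPM unwounded. Klk6 was close to the detection limit in oral mucosa, with 12 UMIs at day 4 and 5 UMIs unwounded, against 225 CPM in day 4 facial and 436 CPM in unwounded facial skin. Klk8 lay at 134 and 136 CPM in the day 4 and unwounded oral sections, against 633 and 359 CPM in the day 4 and unwounded facial sections. For these 4 genes the oral and facial sections did not overlap. By the rule of calls given below, 35.5% of all genes were lower in oral mucosa at day 4 and 59.7% unwounded. For Klk8 the order of the unwounded sections turned when scaled per Krt5 and Krt14 UMI.

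The highest and lowest Spink5 levels of the 4 sections were 1.62-fold apart. It stood at 297 CPM (278 to 317) in day 4 oral and 222 CPM (211 to 233) in unwounded oral mucosa, against 353 CPM (341 to 364) in day 4 facial and 359 CPM (348 to 370) in unwounded facial skin. The 2 facial intervals overlapped, and the oral ones did not.

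**Figure D1:**
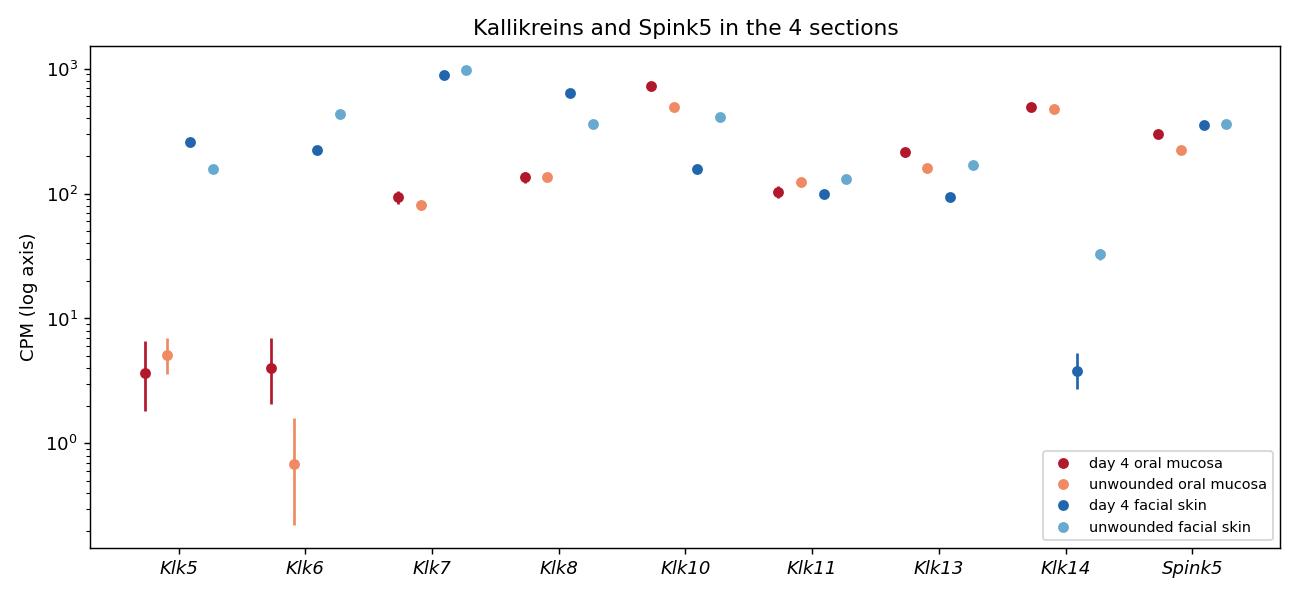
Level of each gene in CPM (log axis) in the 4 sections, 1 point per section, with the exact 95% Poisson interval as a line (counting error only). Klk14 is high in both oral sections (489 and 478 CPM) and low in both facial ones (3.83 and 32.7 CPM), while Klk5, Klk6 and Klk7 are arranged the other way.

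Calls of higher or lower needed a 1.5-fold difference, Poisson intervals that did not overlap, and 20 UMIs or more in the pair of sections. Between the day 4 sections, oral against facial, 3 of 9 members were called higher (Klk10, Klk13 and Klk14) and 4 lower (Klk5, Klk6, Klk7 and Klk8), where 11.5% of all genes tested were called higher and 35.5% lower. Between the unwounded sections 1 was called higher (Klk14) and 5 lower (Klk5, Klk6, Klk7, Klk8 and Spink5), where the shares of all genes were 10.1% and 59.7%. The median log2 ratio of the members, with 10 CPM added on both sides, was -0.24 at day 4 and -0.67 unwounded, and that of all genes was -0.27 and -0.47. The call of Spink5 depended on the scaling: its log2 ratio between the unwounded sections was -0.69, and 0.072 with TMM factors. The balance of calls between the unwounded sections moved too: 4 higher and 4 lower with TMM factors, 5 and 3 in spots with under 1% muscle markers, and 6 and 3 per Krt5 and Krt14 UMI.

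The make-up of the kallikrein UMIs does not depend on the scaling of section totals. Klk14 made up 27.6% of the UMIs of the 8 kallikreins in day 4 oral and 32.3% in unwounded oral mucosa, against 0.162% (0.115 to 0.223) in day 4 facial and 1.22% (1.11 to 1.35) in unwounded facial skin. Klk10 made up 41.3% and 33.5% in the day 4 and unwounded oral sections, against 6.62% and 15.4% in the day 4 and unwounded facial sections. Together these genes held most of the oral kallikrein UMIs. Klk7 made up 5.29% and 5.44% in the day 4 and unwounded oral sections, against 37.6% and 36.6% in the day 4 and unwounded facial sections. Klk6 and Klk5 each stayed under 0.4% in both oral sections, while Klk6 made up 9.55% in day 4 facial and 16.3% in unwounded facial skin.

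**Figure D2:**
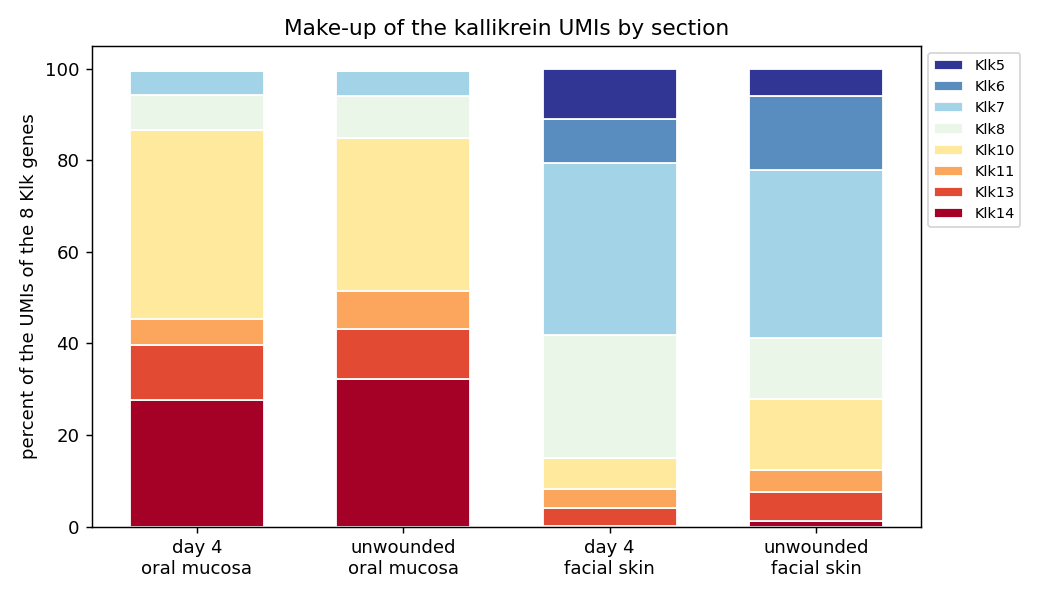
Percent of the UMIs of the 8 kallikreins that each gene makes up, 1 bar per section, with genes stacked from Klk14 at the bottom to Klk5 at the top in their order on the chromosome. Klk14 and Klk10 fill most of both oral bars, Klk7 is the largest block in both facial bars (37.6% and 36.6%), and Klk6 and Klk5 are too thin to see in the oral bars.

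Regions were found by clustering the spots of each section without the 9 genes, and are called by their leading genes. Each section had 1 region with at least 3 Lce1 genes, of the late cornified envelope, among its 10 leading genes. These regions held 24 spots in day 4 oral, 70 in unwounded oral, 98 in day 4 facial and 86 in unwounded facial sections. Comparing them was decided after the whole-section values were seen, and the unwounded facial region was led by Krt77, Slurp1 and Lce1m. Muscle markers made up 0.207% of the UMIs of the Lce1-led region in day 4 oral and 0.443% in unwounded oral mucosa, against 0.0106% in day 4 facial and 0.00958% in unwounded facial skin.

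Within the Lce1-led regions the summed level of the 8 kallikreins was 6446 CPM in day 4 oral and 5768 CPM in unwounded oral mucosa, against 6573.5 CPM in day 4 facial and 4581 CPM in unwounded facial skin. The genes behind these sums differed. Klk14 stood at 2043 and 1905 CPM in the day 4 and unwounded oral regions, from 940 and 2061 UMIs, against 16.4 and 10.65 CPM in the day 4 and unwounded facial regions, from 18 and 16 UMIs. It was 124-fold higher in the oral region at day 4 and 179-fold higher unwounded. The unwounded fold depended on the facial region: it was 18.7-fold against the Il1b-led region of that section (102 CPM), where granular markers made up 5.19% of UMIs against 2.90% in the Lce1-led one, and 31.7-fold against an Lce3-led region found at a finer clustering (60.1 CPM). Klk10 was 10.5-fold higher at day 4 (2156 against 205 CPM) and 4.63-fold higher unwounded (1902 against 411 CPM). Klk13 was 2.75-fold and 1.97-fold higher at the same times. These unwounded folds depended on the facial region too. In the Il1b-led region Klk10 stood at 694 CPM and Klk13 at 536 CPM (490 to 586). That Klk13 interval overlapped the one of the unwounded oral Lce1-led region, at 589 CPM (544 to 636).

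Klk7 stood at 504 CPM in the day 4 oral region and 2668 CPM in the day 4 facial one, and at 379 and 1805 CPM in the unwounded oral and facial regions. Klk5 was 32.8-fold lower in the oral region at day 4 and 20.3-fold lower unwounded. Klk6 had 4 UMIs in the day 4 oral region and 5 in the unwounded oral one, against 865 and 1057 in the day 4 and unwounded facial regions. Of the 9 members, 3 were called higher and 4 lower at day 4 (8.75% and 14% of all genes tested), and 4 higher and 3 lower unwounded (6.17% and 26.7% of all genes tested). Spink5 was called in neither comparison. The unwounded counts refer to the Lce1-led facial region and were not taken against the Il1b-led one.

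The tissue contrast was ordered along the chromosome. Over the 10 genes from Klk14 to Klk5, including Klk12 and Klk9, the Spearman correlation of the gene's start with its log2 ratio of oral over facial CPM was -0.94 at day 4 and -0.89 unwounded, and -0.93 and -0.92 within the Lce1-led regions. This order was noticed in these data, the genes of a cluster are not independent, and both contrasts use the same 10 positions, so the correlations are a description and carry no p. The log2 ratio between the day 4 sections was 7.00 for Klk14, 1.19 for Klk13, 3.73 for Klk12, 0.07 for Klk11 and 2.23 for Klk10. Past Klk10 it was -1.37 for Klk9, -2.24 for Klk8, -3.24 for Klk7, -5.82 for Klk6 and -6.16 for Klk5. Between the unwounded sections it was 3.87 for Klk14, -0.09 for Klk13, 2.95 for Klk12, -0.08 for Klk11 and 0.26 for Klk10. On the other side it was -2.06 for Klk9, -1.40 for Klk8, -3.61 for Klk7, -9.31 for Klk6 and -4.95 for Klk5, where Klk6 rests on 5 oral UMIs. The sign changed between Klk10 and Klk9 within the Lce1-led regions at both times. Klk13 and Klk11 lay closer to 0 than their neighbours Klk14, Klk12 and Klk10 in both whole-section contrasts.

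**Figure D3:**
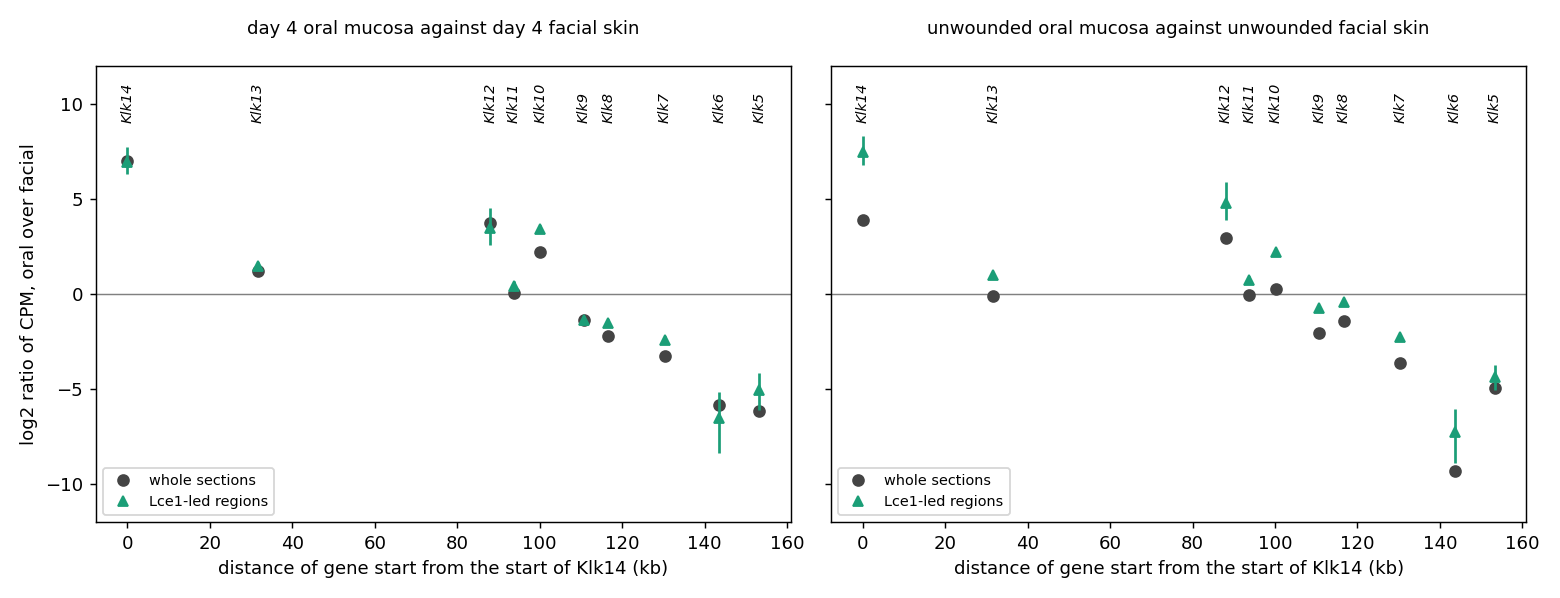
Log2 ratio of CPM, oral over facial, against the distance of each gene's start from the start of Klk14 in kb, for the day 4 (left) and unwounded (right) sections. Circles are whole sections, triangles the Lce1-led regions with their exact 95% interval (counting error only), and the values run from above 0 at Klk14 to below 0 at Klk5.

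Klk12 and Klk9 are kallikreins outside the 9 genes. Klk12 stood at 34.6 and 43.9 CPM in the day 4 and unwounded oral sections, against 2.62 and 5.70 CPM in the day 4 and unwounded facial sections. Klk9 stood at 99.5 and 87.0 CPM in the day 4 and unwounded oral sections, against 257 and 363 CPM in the day 4 and unwounded facial sections. Klk15 had 0 UMIs in all 4 sections, which by a floor of 3 UMIs allows up to 0.999 CPM in day 4 oral mucosa, the shallowest section, and Klk4 had 2 UMIs in day 4 oral mucosa and 0 elsewhere. The 14 classical glandular kallikreins, abundant in rodent salivary glands, summed to 3.0 CPM or less in every section.

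The contrast of day 4 with unwounded tissue was taken within each tissue. Between day 4 and unwounded facial skin 2 members were called higher (Klk5 and Klk8) and 4 lower (Klk6, Klk10, Klk13 and Klk14), where 6.09% of all genes tested were called higher and 8.59% lower. Klk8 was 1.76-fold higher at day 4 and Klk5 1.66-fold higher. Klk10 was 2.65-fold lower, Klk6 1.94-fold lower, Klk13 1.82-fold lower and Klk14 8.56-fold lower. The median log2 ratio of the 9 members was -0.37, and that of all genes -0.03. Without the Il1b-led region of the section labelled unwounded facial skin the same 6 genes were called in the same directions, with log2 ratios of 1.02 for Klk8 and -1.32 for Klk10. Neither Klk5 nor Klk8 was called higher per keratinocyte marker UMI, as a mean over spots or at a 2-fold limit, and without part 1 of the unwounded or part 4 of the day 4 facial section Klk8 alone was. Of the granular markers 6 of 8 were called higher in day 4 facial skin, and of the stress and wound keratinocyte markers 4 of 6 lower, and their part in the result was not tested.

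Fewer members, 3 of 9, were called inside the Lce1-led facial regions. Between the Lce1-led regions of day 4 and unwounded facial skin Klk8 was 2.36-fold higher (1625 against 689.6 CPM), Klk5 1.81-fold higher and Klk10 2.01-fold lower, and no other member was called (6.56% of all genes were called higher and 18.8% lower). Granular markers made up 8.65% of UMIs in the day 4 region and 2.90% in the unwounded one, genes of filaggrin processing 4.11% and 1.58%, and neutrophil markers 0.0432% and 0.795%, and their part in the result was not tested. Klk6 stood at 790.1 CPM in the day 4 region and 704 CPM in the unwounded one, and Klk13 at 279 and 298 CPM. Klk14 stood at 16.4 and 10.65 CPM, from 18 and 16 UMIs. These contrasts depended on the unwounded region taken. In the Il1b-led region of unwounded facial skin, with granular markers at 5.19%, Klk6 stood at 1353 CPM, Klk13 at 536 CPM and Klk14 at 102 CPM. These lie above the day 4 values, as over whole sections. Klk5 (391 CPM), Klk8 (933 CPM) and Klk10 (694 CPM) kept their direction there. Of the UMIs of Klk14 in unwounded facial skin 26.1% were in the region with the sebocyte genes Fa2h and Elovl3 among its leading genes, 23.8% in the Il1b-led region, 19.9% in the Tbx1-led one and 4.09% in the Lce1-led one. At a finer clustering 21.2% lay in the Lce3-led region and 8.70% in the Il1b-led one.

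Between day 4 and unwounded oral mucosa no member was called in either direction among the 8 with enough UMIs, where 20.6% of all genes tested were called higher and 3.56% lower. Klk10 came closest to a call of higher, at 1.48-fold, followed by Spink5 and Klk13, both at 1.34-fold. On the lower side Klk5 lay furthest, at a log2 ratio of -0.47 from 11 UMIs at day 4 and 37 unwounded. The median log2 ratio of the members was 0.12, and that of all genes 0.17. The count depended on the area of the sections. Each section was also cut into 4 parts by the medians of its spots' positions. Leaving out part 3 of unwounded oral mucosa gave 6 members called higher, as did leaving out part 3 of day 4 oral mucosa. Within the Lce1-led regions, again, none of the 8 was called (3.37% of all genes were called higher and 3.97% lower). There Klk10 stood at 2156 CPM at day 4 and 1902 CPM unwounded, Klk14 at 2043 and 1905 CPM, and Spink5 at 741 and 763 CPM.

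Beside its Lce1-led region the day 4 oral section held one led by Ppbp, Sprr2f and Krt17, the last a keratin of activated keratinocytes. Stress and wound keratinocyte markers made up 3.52% of its UMIs, against 1.02% in the Lce1-led region, granular markers 0.125% against 4.19%, and neutrophil markers 1.67% against 0.368%. The pair was chosen for comparison after its values were seen. Klk10 differed little, with 2089.6 CPM in the Ppbp-led and 2156 CPM in the Lce1-led region, and their intervals overlapped. Spink5 stood at 911 CPM in the Ppbp-led and 741 CPM in the Lce1-led region. Klk7, Klk8, Klk11, Klk13 and Klk14 were lower in the Ppbp-led region, and the part of these markers in the contrast was not tested. The share of all genes that were lower there was not counted.

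Klk7 was furthest apart between these regions, at 36.1 CPM from 15 UMIs in the Ppbp-led region and 504 CPM from 232 UMIs in the Lce1-led one, 14.0-fold lower. Klk8 was 4.26-fold lower, Klk11 3.36-fold lower, Klk14 3.26-fold lower and Klk13 1.88-fold lower. Klk5 had 0 UMIs there against 10, too few to compare. Corneodesmosin (Cdsn), a substrate of the cascade, stood at 339 CPM in the Ppbp-led and 2299 CPM in the Lce1-led region. Asprv1, the protease that processes profilaggrin, was 49.1-fold lower. The Ppbp-led region held 3.76 kallikrein UMIs per Spink5 UMI (3.35 to 4.22), and the Lce1-led region 8.70 (7.77 to 9.76).

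In the section labelled unwounded facial skin the Il1b-led region had the highest level of Klk6 and Klk7 among the 26 regions of the main clustering. Klk7 stood at 2890.0 CPM and Klk6 at 1353 CPM there, against 1805 and 704 CPM in the Lce1-led region of the same section. Granular markers made up 5.19% of its UMIs and neutrophil markers 1.75%, against 2.90% and 0.795% in the Lce1-led region, and the part of either in the kallikrein level was not tested. It held 10.7 kallikrein UMIs per Spink5 UMI (9.87 to 11.7). At a finer clustering these values went with the Lce3-led region, where Klk7 stood at 2878 CPM and Klk6 at 1312 CPM with granular markers at 4.96%, while the Il1b-led region had 839 and 573 CPM with granular markers at 1.68%. The kallikrein UMIs per Spink5 UMI were then 9.34 in the Lce3-led and 8.06 in the Il1b-led region. Klk10 in facial skin was also found in the regions with Fa2h and Elovl3 among their leading genes, at 256 CPM at day 4 and 615 CPM unwounded, which held 36.1% and 24.2% of its UMIs.

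**Figure D4:**
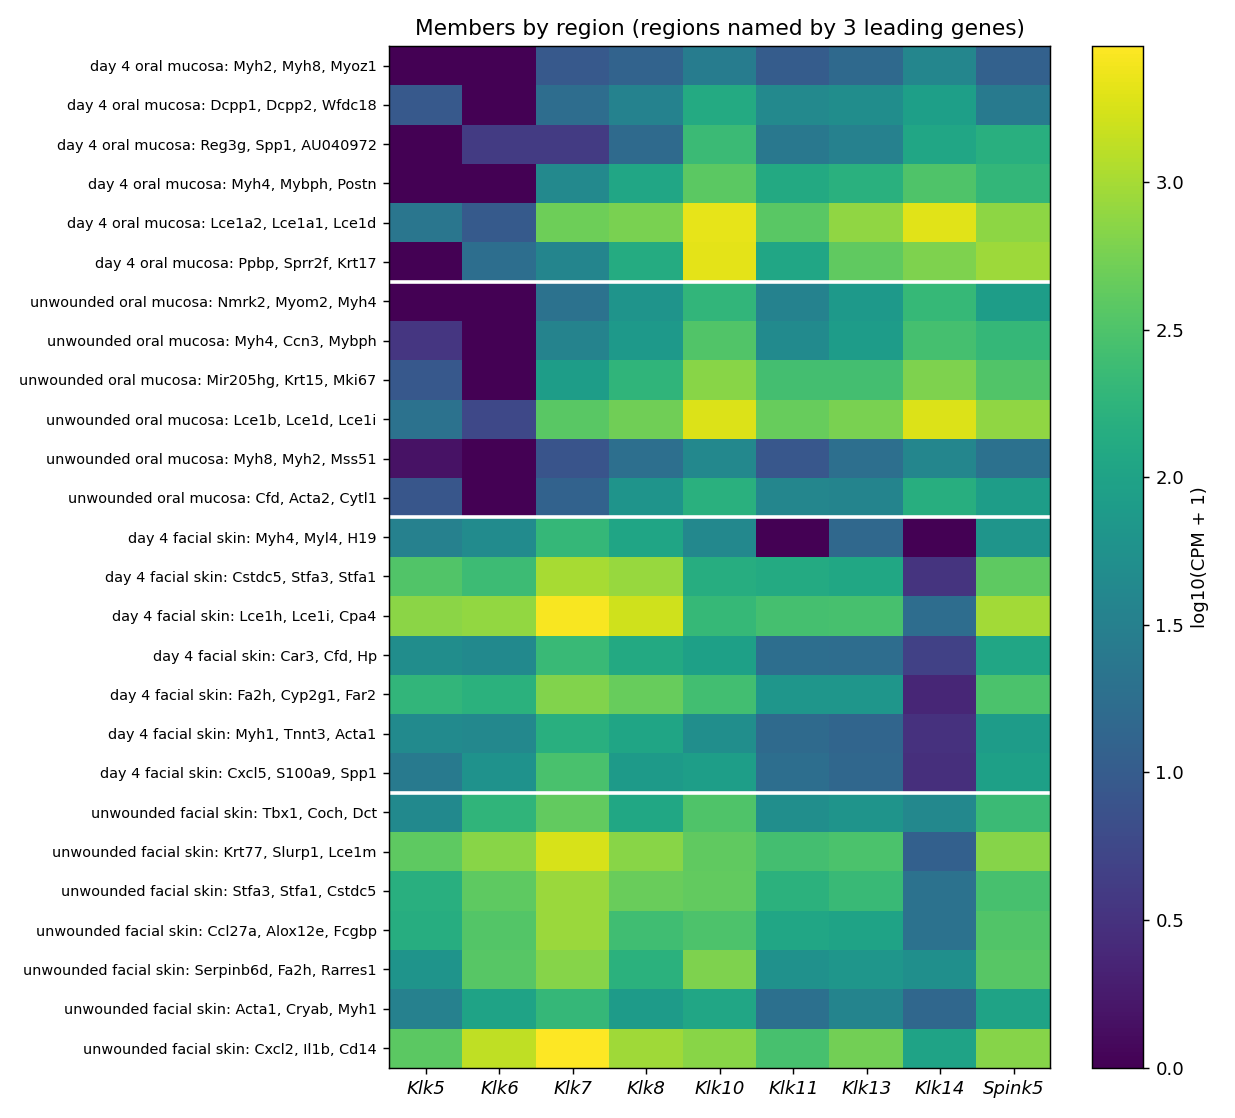
Level of each gene as log10(CPM + 1) in each of 26 regions, in rows by section from day 4 oral mucosa at the top to unwounded facial skin at the bottom, and named by 3 leading genes. Klk10, Klk14 and Spink5 are bright in the oral Lce1-led rows, Klk10 and Spink5 stay bright in the Ppbp-led row where Klk7 is dim (36.1 CPM), and Klk14 is dim in the facial Lce1-led rows (16.4 and 10.65 CPM).

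Over whole sections the balance of proteases to inhibitor moved little. The 8 kallikreins had 5.97 UMIs per Spink5 UMI in day 4 oral (5.56 to 6.42) and 6.66 in unwounded oral mucosa (6.32 to 7.02), against 6.69 in day 4 facial (6.45 to 6.93) and 7.47 in unwounded facial skin (7.23 to 7.71). The log2 difference was -0.16 in each of the 4 comparisons. It did not hold in the Lce1-led regions, where it was 0.342 between oral and facial at day 4, 0.181 between oral and facial unwounded, 0.202 between day 4 and unwounded oral and 0.041 between day 4 and unwounded facial. Klk14 alone had 1.65 and 2.15 UMIs per Spink5 UMI in the day 4 and unwounded oral sections, against 0.0108 and 0.0913 in the day 4 and unwounded facial sections.

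Of the UMIs of Klk7, 82.3% lay in the Lce1-led region of day 4 oral mucosa and 70.0% in that of unwounded oral mucosa, against 33.2% and 23.2% in those of day 4 and unwounded facial skin. The 12 richest of 430 spots held at least 50% of the Klk14 UMIs in day 4 oral mucosa, and the 34 richest of 1288 did so in unwounded oral mucosa. A muscle-led region was taken for comparison, in which oral suprabasal markers made up 0.24% of UMIs. Klk14 stood at 38.0 CPM in this Myh2-led region of day 4 oral mucosa, with a UMI in 22.7% of its spots at a median of 10201 UMIs per spot, against 2043 CPM and all spots of the Lce1-led region at a median of 18693. A Klk14 UMI was seen in 38.4% of all day 4 oral and 33.5% of all unwounded oral spots, against 2.54% of day 4 facial and 31.4% of unwounded facial spots. Thinned to 1000 UMIs per spot, which left out 65, 765, 45 and 18 spots in that order, Klk14 was found in 17.3% of day 4 oral and 26.8% of unwounded oral spots, against 0.274% of day 4 facial and 3.83% of unwounded facial spots.

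**Figure D5:**
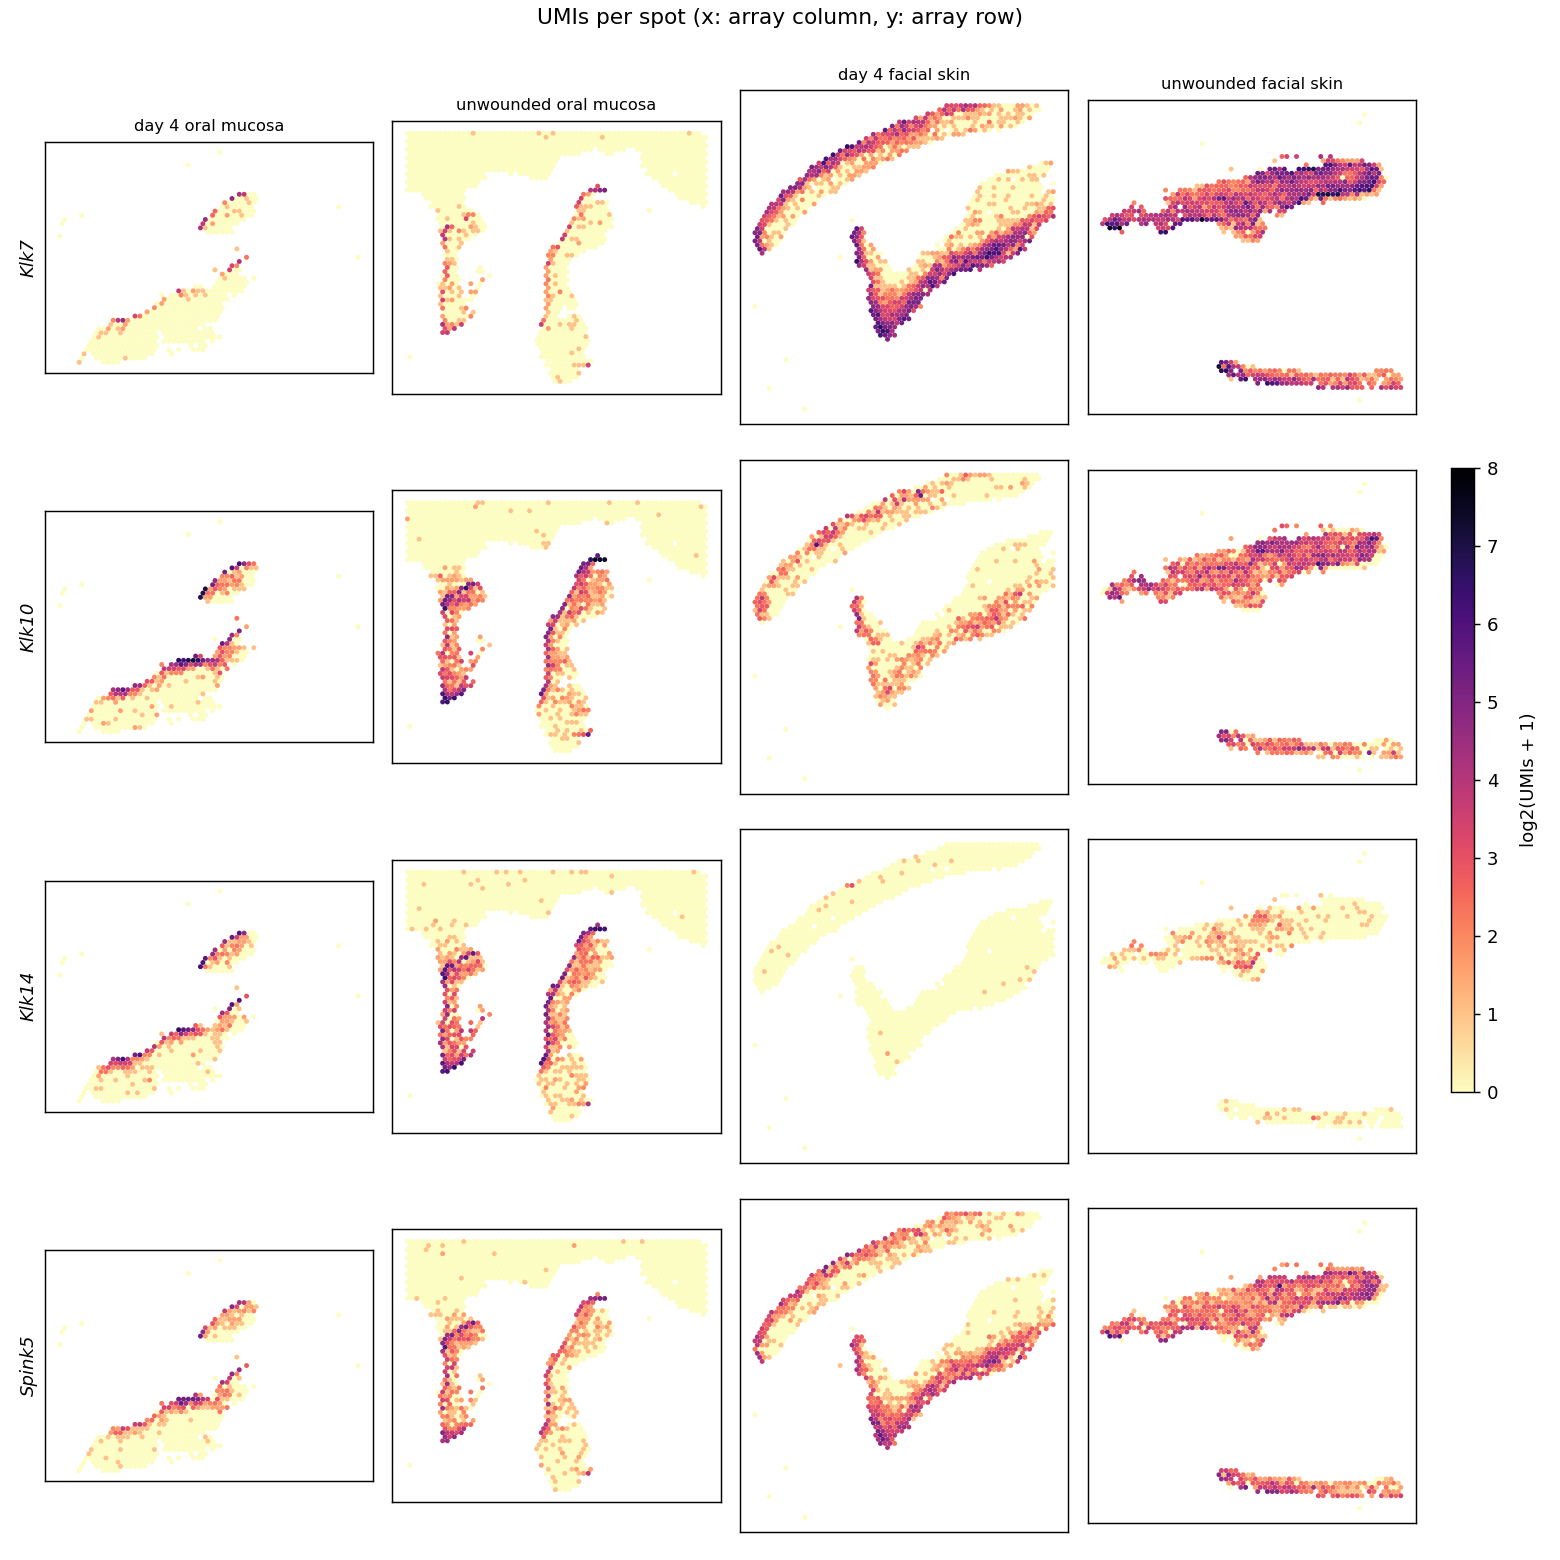
UMIs per spot, as log2(UMIs + 1), of Klk7, Klk10, Klk14 and Spink5 (rows) at the array position of each tissue spot in the 4 sections (columns), not adjusted for the depth of the spot. Klk10, Klk14 and Spink5 follow the epithelial edge of both oral sections, Klk7 is dense in both facial sections, and Klk14 is nearly blank in day 4 facial skin (38 UMIs).

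The members also differed in which genes resembled them over the 26 regions that held at least 1% of their section's UMIs, by Pearson correlation of log-scaled levels among 11053 candidates. The regions share sections, depth and tissue make-up, so these are descriptions. The sum of the 8 kallikreins was most like Krt80 (0.974), Lypd3, Sult2b1, Endou and Mpzl3. Klk5 was most like Lce1m (0.970), Casp14 and Sphk1, and Klk6 like Casp14 (0.973), Ivl and Cyp2b19. Klk7 was most like Pla2g2f (0.973), Il1f5 and Hrnr, and Klk8 like Calm4 (0.977), Sbsn and Nccrp1. Klk10 stood apart with Sprr1a (0.962), Zdhhc5 and Mpzl2, and Klk14 with Slpi (0.968), which encodes a leukocyte protease inhibitor, S100a7a and 2300002M23Rik. Klk11 was most like Cers3 (0.969), AI661453 and Ppl, Klk13 like Cnfn (0.963), Tgm1 and AI661453, and Spink5 like Lypd3 (0.959), Sult2b1 and Kdm5b. Among the members themselves Klk11 and Klk13 were closest (0.952), followed by Klk5 and Klk6 (0.926). Klk6 and Klk14 had -0.536 over both tissues but 0.595 within the oral and 0.709 within the facial regions. The oral value rests on 12 Klk6 UMIs at day 4 and 5 unwounded. Within the oral regions alone Klk8 and Klk14 reached 0.975, and within the facial regions 0.256.

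The substrates and partners of the cascade were taken as lists. Of the corneodesmosome components 0 of 4 measured were called higher and 4 lower in day 4 oral against day 4 facial, and 0 of 5 higher and 2 lower between the unwounded sections, beside 35.5% and 59.7% of all genes called lower. Corneodesmosin (Cdsn) stood at 459 CPM in day 4 oral and 976 CPM in day 4 facial skin, and the desmosomal cadherin Dsg1a at 189 and 709 CPM. Among genes of filaggrin and its processing 2 of 8 were higher and 6 lower at day 4, and 1 of 8 higher and 5 lower unwounded, where the unwounded counts lie near the shares of all genes (10.1% and 59.7%). Flg, the filaggrin precursor of facial cornification, stood at 29.0 CPM in day 4 oral and 4710 CPM in day 4 facial skin, while the transglutaminase Tgm3 stood at 1103 and 55.9 CPM.

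The membrane proteases upstream in epidermis, St14 (matriptase) and Prss8 (prostasin), were both called lower in day 4 oral against day 4 facial, and St14 alone between the unwounded sections. Of all genes tested, 35.5% were called lower at day 4 and 59.7% unwounded. Neither St14 nor Prss8 was called with wounding in either tissue. Among the other protease inhibitors 1 of 6 was higher and 3 lower in day 4 oral against day 4 facial, beside 11.5% and 35.5% of all genes. Cst6 (cystatin M/E), a cysteine protease inhibitor of the stratum corneum, stood at 116 and 168 CPM in the day 4 and unwounded oral sections, against 1193 and 2465 CPM in the day 4 and unwounded facial sections. F2rl1, which encodes the protease-activated receptor PAR2 that kallikreins can cleave, stood at 11.0 and 5.49 CPM in the day 4 and unwounded oral sections, against 46.7 and 51.7 CPM in the day 4 and unwounded facial sections.

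The same lists were counted for wounding, where 6.09% of all genes were called higher and 8.59% lower in facial skin, and 20.6% and 3.56% in oral mucosa. In day 4 against unwounded facial skin 1 of 5 corneodesmosome components was called higher (Dsg1a, 1.59-fold) and none lower, and among genes of filaggrin processing 3 of 8 were higher (Flg2, Asprv1 and Hrnr) and 2 lower. In day 4 against unwounded oral mucosa 0 of 4 corneodesmosome components were higher and 2 lower (Dsg1b and Dsc1), and 3 of 7 filaggrin genes were higher and 1 lower. Flg stood at 29.0 CPM in day 4 oral and 1.37 CPM in unwounded oral mucosa. The other inhibitors had 1 of 5 higher and 1 of 5 lower in each tissue, with Serpina12, a serpin that inhibits KLK7, 2.95-fold higher in day 4 facial skin and Cst6 2.07-fold lower. In oral mucosa Serpina12 was the inhibitor called lower, with 2 UMIs at day 4 and 136 unwounded. All 6 neutrophil markers were called higher in day 4 oral mucosa, with S100a8 at 1752 CPM there and 19.1 CPM in the unwounded section, and their part in the oral results was not tested.

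Most pairs of members were found together more often than their separate frequencies give, though only slightly so in unwounded facial skin. Over spots of at least 1000 UMIs, the number holding both genes of a pair divided by the number from the product of the separate shares, taken within 4 classes of spot depth, had a median of 1.70 in day 4 oral (26 of 26 pairs above 1), 1.25 in unwounded oral (28 of 28), 1.11 in day 4 facial (35 of 36) and 1.01 in unwounded facial skin (32 of 36). Pairs for which the product gave fewer than 5 spots were left out, all of them oral pairs with Klk5 or Klk6. The ratio has a ceiling that falls as genes become common. Klk7 was in 646 of the 653 such spots of unwounded facial skin, so the medians cannot be compared between sections. Spots also differ in tissue, and its part in these ratios was not tested.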

How the data were processed

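The deposited files hold, for each section, whole-number UMI counts per gene and spot, not normalized, and per the file headers Space Ranger 1.3.1 wrote them. Seurat and mm10 are named in the submitters' processing notes. Counts of tissue spots were summed per section and divided by the section's total and scaled (CPM), with exact Poisson intervals and exact conditional intervals of ratios at 95% (scipy 1.17.1, Python 3.11.15). With 1 section a group no test across samples exists, so a gene was called at 1.5-fold, with intervals apart and at least 20 UMIs. Log2 ratios of lists have 10 CPM added. Spots of at least 500 UMIs were clustered without the members (scanpy 1.11.5, Leiden). TMM factors came from edgeR 4.0.16 in R 4.3.3. The rule of calls was also run on simulated counts that held counting error only. Such counts cannot show how far sections of the same group differ, and the outcome is not reported here. Genes named by rule are the 9 members, up to 4 of each supporting list with the largest absolute log2 ratio, and for likeness the 5 highest correlations with the summed kallikreins and the 3 highest with each member, with Klk12, Klk9 and other genes named beside them chosen after their values were seen. The members and lists were chosen with earlier results of these data known, and the order along the chromosome, the motifs, the Lce1-led comparison and the pair of day 4 oral regions after the values were seen. Postoperative days 2 and 7, single-cell and bulk data were not analysed here. UMIs count each transcript once, so levels were not divided by length.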

Additional observations from a re-analysis of the deposited data

Results flagged for a closer look

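For 4 members the contrast of day 4 with unwounded tissue ran up in oral mucosa and down in facial skin with both counting intervals away from 0, with 1 section in each group. The difference between the tissues, oral minus facial in log2 of day 4 over unwounded, was 3.49 for Klk6, 1.97 for Klk10, 1.29 for Klk13 and 0.37 for Klk7. In oral mucosa Klk7, Klk10 and Klk13 were not called, and Klk6 had too few UMIs for a call. Their oral rise also depended on the scaling. The TMM factors, 0.924 for day 4 oral and 0.732 for unwounded oral mucosa, lower every oral ratio. For Klk7, with an oral log2 ratio of 0.22, this is enough to turn the sign. Klk14 (difference 3.13) and Spink5 (0.45) ran the same way with an interval that held 0 in 1 of the tissues. Not all ran down between the Lce1-led facial regions. There the log2 ratio of day 4 over unwounded was 0.564 for Klk7, 0.167 for Klk6, -0.093 for Klk13 and -1.01 for Klk10. The unwounded Il1b-led facial region had higher levels of these 4 genes than either Lce1-led facial region. The share of all genes that meet the same rule was not counted. None of these differences was tested, and Klk6 rests on 12 UMIs in day 4 oral and 5 UMIs in unwounded oral mucosa.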

How the results depend on the processing

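No paired analysis was possible because each group held 1 section. Of 164 counts of members called under the alternatives, 130 stayed within 1.5 times and 34 moved, and the cause was not tested. For day 4 against unwounded facial skin the count higher was 0 per keratinocyte marker UMI, 0 at a 2-fold limit and 0 as a mean over spots, and the count lower was 2 at a 2-fold limit and 1 in the Lce1-led regions. For day 4 against unwounded oral mucosa the count higher was 3 per keratinocyte marker UMI and 1 in spots of at least 1000 UMIs, with no minimum of UMIs, without the gland region and as a mean over spots. The count lower was 1 with TMM, 1 in spots under 1% muscle markers, 4 per Krt5 and Krt14 UMI and 5 as a mean over spots. For unwounded oral against unwounded facial the count higher was 4 with TMM, 2 without mitochondrial and the top 50 genes, 5 under 1% muscle markers, 6 per Krt5 and Krt14 UMI, 4 in the Lce1-led regions, 3 with day 4 facial skin as the facial section (an alternative added after the data were seen, as were the Lce1-led regions) and 2 as a mean over spots. The count lower was 3 under 1% muscle markers, per Krt5 and Krt14 UMI and in the Lce1-led regions. For day 4 oral against day 4 facial the count higher was 5 under 1% muscle markers and 5 per Krt5 and Krt14 UMI.

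Leaving out each of 4 parts of a section in turn gave 1 to 2 higher and 3 to 5 lower for facial wounding, 0 to 6 and 0 to 3 for oral wounding, 1 to 2 and 4 to 7 for the unwounded tissues, and 2 to 4 and 4 to 6 for the day 4 tissues. The log2 difference in kallikrein UMIs per Spink5 UMI turned positive in the Lce1-led regions, at 0.041 for facial wounding, 0.202 for oral wounding, 0.181 for the unwounded tissues and 0.342 for the day 4 tissues. Without the Il1b-led region it was -0.051 for facial wounding and -0.056 for the unwounded tissues, and under 1% muscle markers -0.071 for the unwounded tissues. Leaving out parts gave -0.233 to -0.054 for facial wounding, -0.57 to 0.05 for oral wounding (positive without part 4 of unwounded oral mucosa), -0.372 to 0.247 for the unwounded tissues (positive without part 3 of unwounded oral mucosa) and -0.29 to -0.026 for the day 4 tissues.

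Among single genes, 8 log2 ratios of called members changed sign under an alternative. In the Lce1-led regions a further 8 ratios of members not called over whole sections also changed sign. In the Lce1-led regions those of facial wounding were 0.167 for Klk6 and 0.626 for Klk14, the latter from 18 and 16 UMIs. For Spink5 between the unwounded tissues the ratio was 0.072 with TMM, 0.604 under 1% muscle markers, 1.768 per Krt5 and Krt14 UMI, 0.151 in the Lce1-led regions and -1.695 to 0.057 with parts left out (0.057 without part 4 of unwounded oral mucosa), and for Klk8 it was 1.061 per Krt5 and Krt14 UMI. At a clustering resolution of 1 the unwounded facial section had no region with 3 Lce1 genes among its leading genes, so it gave no value. Low counts limit the precision of Klk5 and Klk6 in oral mucosa and of Klk14 in day 4 facial skin, each with under 40 UMIs.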
